A study of Mus musculus with 19 samples.

Results

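The genes described here make cholesterol, or regulate that synthesis, in mouse liver. They are 28 genes of sterol synthesis and of the sterol-regulated transcription factor SREBP2, taken by gene symbol from the liver array table: 6 of the mevalonate pathway, 4 from isoprenoids to squalene, 9 from lanosterol to cholesterol, 6 regulators and 3 genes of sterol transport and other SREBP2 targets. All 28 were measured, by 30 of the 23568 probes of the table, which names 18606 gene symbols among its tested probes. Idi1 and Ggps1 had 2 probes each, and every gene is described by its brightest probe. The mice were 5LO KO mice on the B6 background, which lack 5-lipoxygenase, the enzyme that starts leukotriene synthesis, and wild-type B6 mice. All were 20 weeks old and had eaten either chow enriched in fat, cholesterol and cholate (the atherogenic diet) or plain chow for 16 weeks. The groups held 5 5LO KO and 4 B6 mice on the atherogenic diet, and 5 5LO KO and 5 B6 mice on chow. Each of the 19 arrays compared whole-liver RNA of 1 mouse (Cy5 dye) with a pool of B6 livers of the same diet (Cy3 dye), made from 4 mice on the atherogenic diet and 5 on chow. The labels name single mice as the replicates. The labels do not say which part of the 5-lipoxygenase gene the knockout lacks.

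Cholesterol is built from acetyl-CoA through mevalonate, farnesyl diphosphate, squalene and lanosterol. When sterol runs short in the endoplasmic reticulum, the escort protein Scap carries SREBP2 to the Golgi, where the proteases Mbtps1 and Mbtps2 release its transcription factor domain. The freed domain switches on the genes of nearly every step and its own gene. When sterol is plentiful, Insig proteins hold Scap back and the program falls silent, which in liver is the known reply to cholesterol in the diet.

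Each array measured 22763 to 23511 probes. The number of arrays limits the precision. The hepatocyte markers Alb, Ttr and Ass1 were brighter than 90.6%, 90.8% and 97.6% of the probes, whereas Hsd3b1, a marker of steroid-making cells, was brighter than 2.17%. These are single members of their lists. Over the measured lists, the mean log2 intensity in chow B6 mice was 2.76 for 4 hepatocyte markers, -2.46 for 4 intestine markers and -5.75 for 3 markers of steroid-making cells. The Alox5 probe was dim, with 44.8% of probes dimmer, and its log2 ratio differed by 0.21 between 5LO KO and B6 mice on chow (limma, Benjamini-Hochberg adjusted p = 0.349). The place of that probe in the gene is not known here, so it checks nothing about the knockout. Chow-fed 5LO KO mouse D (letters name the mice of a group) stood apart over all probes, and mouse E in many of the sterol genes. The standard deviation of the log2 ratios over all probes was 1.01 in mouse D. It was 0.473 in mouse E, within the 0.318 to 0.538 of mice A to C. Over all probes mouse E was close to mouse B, with a median absolute difference of log2 intensity of 0.174, the smallest between chow-fed 5LO KO mice. The mean log2 intensity of 4 hepatocyte markers was 1.66 in mouse D and 1.68 in mouse E, whereas it lay between 2.51 and 3.04 in the other chow-fed mice. The mean log2 ratio of these markers to the pool on the same array was -0.31 in mouse D and -0.24 in mouse E. It lay between -0.26 and 0.38 in the other chow-fed mice, so against the pool mouse E lay within their range. A marker without a value on an array was left out of its mean. Values without these 2 mice are given beside the results that they move most. The 2 mice were set aside after their values were seen, so a larger fall with the diet without them is no separate support.

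The atherogenic diet lowered the sterol genes. In 5LO KO livers 12 of the 28 genes fell on the atherogenic diet and 0 rose, at an adjusted p under 0.05 in limma with Benjamini-Hochberg adjustment over 23344 probes, a call that 9.61% of all probes reached in either direction, 4.37% as lower and 5.23% as higher. In B6 livers 9 of the 28 fell and 0 rose, whereas 7.16% of all probes were called in either direction, 2.54% as lower and 4.62% as higher. The median log2 difference, atherogenic diet minus chow, was -0.57 over the 28 genes in 5LO KO livers, beside -0.01 over all probes. It was -0.59 in B6 livers, beside -0.04 over all probes. The difference was below 0 for 24 of the 28 genes in 5LO KO livers and for 25 in B6 livers, where 50.6% and 54.3% of all probes were below 0. In whole liver, fewer cells of a type and less RNA per cell cannot be told apart.

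**Figure D1:**
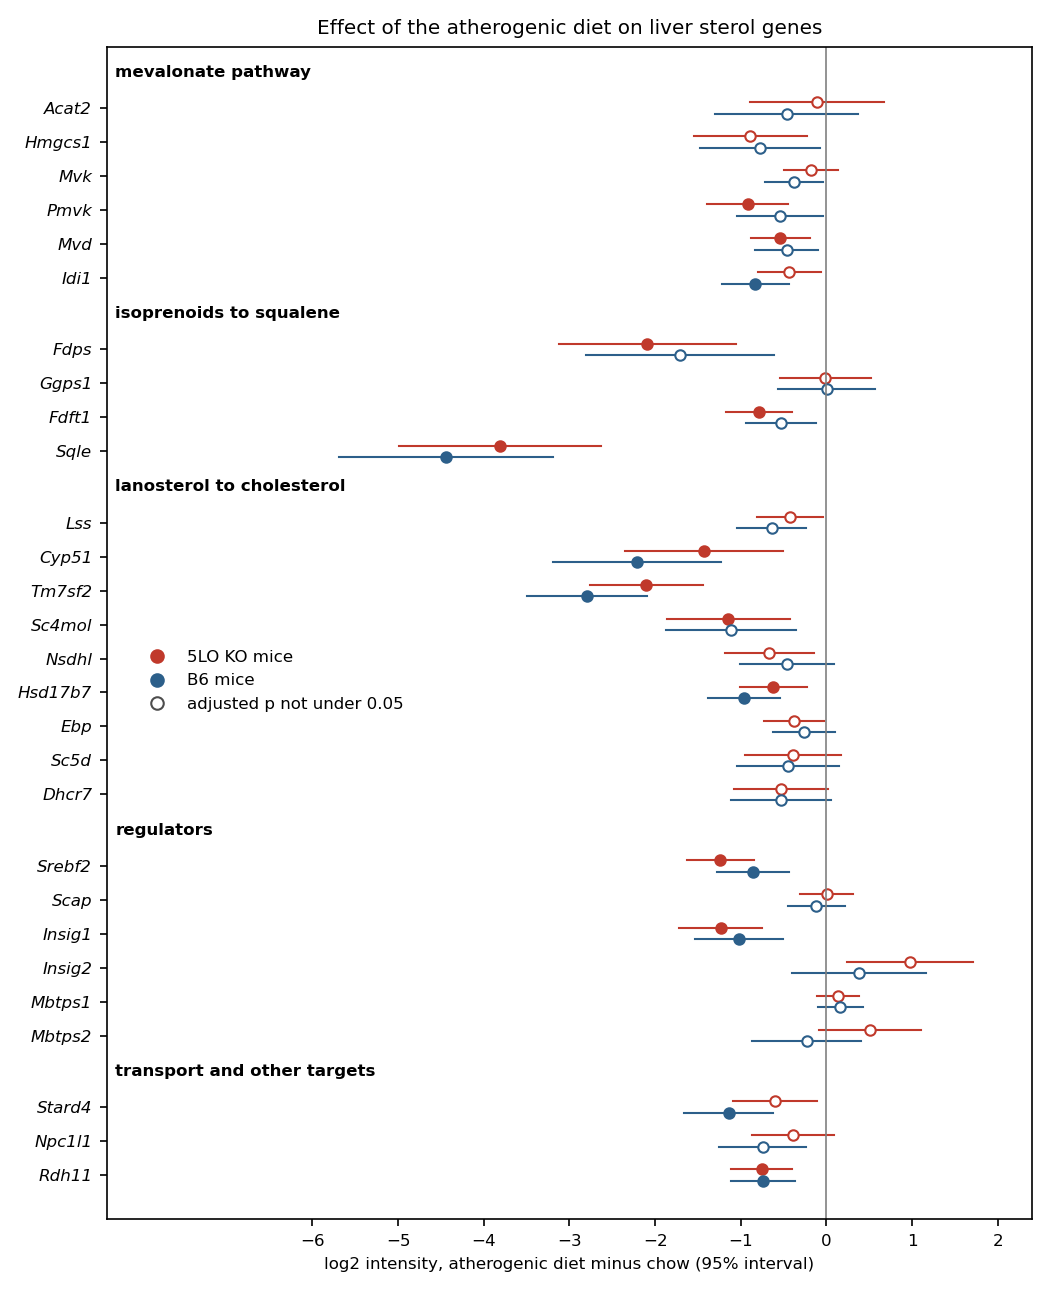
Difference of log2 intensity, atherogenic diet minus chow, for the 28 sterol genes by role, in 5LO KO mice (red) and B6 mice (blue), with 95% intervals; filled points had an adjusted p under 0.05. All filled points lie below 0, and Sqle lies farthest down with -3.81 in 5LO KO mice and -4.44 in B6 mice.

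7 genes fell in both genotypes: Sqle, Cyp51, Tm7sf2, Hsd17b7, Srebf2, Insig1 and Rdh11. Of all probes 0.96% were lower in both. Another 5 genes (Pmvk, Mvd, Fdps, Fdft1 and Sc4mol) passed in 5LO KO livers and not in B6 livers, and 2 (Idi1 and Stard4) passed in B6 livers and not in 5LO KO livers. The test of the difference between the genotypes, given further on, passed for 0 of the 28 genes. The atherogenic mice lay wholly below the chow mice for 6 of the 28 genes in 5LO KO livers (Sqle among them within 1 step of rounding) and for 14 in B6 livers, beside 3.9% and 7.47% of all probes. Without chow mice D and E, 16 of the 28 genes fell in 5LO KO livers, beside 1.82% of all probes called as lower. They were the 12 above and Hmgcs1, Idi1, Stard4 and Sc5d. Leaving out mouse E takes away low chow values of many of these same genes, so the larger count is no separate support. The groups share 1 estimate of spread, and 16 genes then also fell in B6 livers, beside 4.45% of all probes, 7 of them added: Hmgcs1, Pmvk, Mvd, Fdps, Fdft1, Lss and Sc4mol.

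The promoters of the sterol genes are known from other work to pair a sterol response element with CCAAT boxes bound by NF-Y and GC boxes bound by Sp1. RefSeq promoters (GRCm38.p6, 300 bases from 250 before to 50 after the start) were matched by symbol for 24 of the 28 genes, and Fdps, Fdft1, Sqle and Stard4 were not matched. Each motif was searched on both strands, and a match is a run of letters and not a shown binding site. CCAAT occurred in a promoter of 20 of the 24 matched genes (83.3%), beside 41.1% of 27025 genes. GGGCGG occurred in 19 of the 24 (79.2%), beside 38.2%. The sterol response motif TCACNCCAC occurred in 1 of the 24 (4.17%), the promoter of Hmgcs1, beside 1.44%, and a longer form of it without the ambiguous letter, which overlaps it, in 0 of the 24, beside 0.0999%. The 6 promoters that follow belong to genes whose values are given for every mouse below. They are chosen to show a synthase and the isomerase of the mevalonate pathway, a pair of late enzymes that fell strongly, the transcription factor and its retention protein. Each is printed 5′ to 3′ on the strand of its gene, and capitals mark a match to CCAAT or TCACNCCAC on either strand (CCAAT reads ATTGG on the other strand).
Hmgcs1 (chr13:119690101-119690400, plus strand): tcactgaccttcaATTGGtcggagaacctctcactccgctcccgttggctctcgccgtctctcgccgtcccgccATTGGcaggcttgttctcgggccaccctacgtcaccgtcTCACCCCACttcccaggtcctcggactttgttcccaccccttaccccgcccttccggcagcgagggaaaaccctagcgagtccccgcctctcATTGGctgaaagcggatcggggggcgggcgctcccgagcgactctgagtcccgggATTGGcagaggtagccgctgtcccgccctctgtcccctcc
Idi1 (chr13:8885356-8885655, plus strand): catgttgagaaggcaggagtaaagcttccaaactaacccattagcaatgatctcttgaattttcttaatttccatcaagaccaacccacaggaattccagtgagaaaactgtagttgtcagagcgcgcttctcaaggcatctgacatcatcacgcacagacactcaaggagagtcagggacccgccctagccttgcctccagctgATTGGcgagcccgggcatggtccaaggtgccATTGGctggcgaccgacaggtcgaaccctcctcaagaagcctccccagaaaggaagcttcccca
Cyp51 (chr5:4104648-4104947, minus strand): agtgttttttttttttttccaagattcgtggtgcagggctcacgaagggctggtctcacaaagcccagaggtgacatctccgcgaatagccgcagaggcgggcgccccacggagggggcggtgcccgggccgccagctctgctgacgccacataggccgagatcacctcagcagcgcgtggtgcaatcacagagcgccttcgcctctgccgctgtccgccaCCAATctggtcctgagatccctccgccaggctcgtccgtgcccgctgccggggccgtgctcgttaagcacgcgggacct
Tm7sf2 (chr19:6067801-6068100, minus strand): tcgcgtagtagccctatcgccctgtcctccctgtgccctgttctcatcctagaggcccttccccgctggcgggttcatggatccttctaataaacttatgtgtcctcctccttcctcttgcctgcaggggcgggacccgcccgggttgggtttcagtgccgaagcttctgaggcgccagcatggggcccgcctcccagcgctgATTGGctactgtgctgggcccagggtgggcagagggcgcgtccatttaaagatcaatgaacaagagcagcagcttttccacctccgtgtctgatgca
Srebf2 (chr15:82147019-82147318, plus strand): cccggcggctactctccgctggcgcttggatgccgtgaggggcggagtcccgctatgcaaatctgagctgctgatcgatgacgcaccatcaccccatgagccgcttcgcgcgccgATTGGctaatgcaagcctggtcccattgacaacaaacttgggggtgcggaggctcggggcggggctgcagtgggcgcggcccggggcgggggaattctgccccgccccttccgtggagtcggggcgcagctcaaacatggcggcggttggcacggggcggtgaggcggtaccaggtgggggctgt
Insig1 (chr5:28071162-28071461, plus strand): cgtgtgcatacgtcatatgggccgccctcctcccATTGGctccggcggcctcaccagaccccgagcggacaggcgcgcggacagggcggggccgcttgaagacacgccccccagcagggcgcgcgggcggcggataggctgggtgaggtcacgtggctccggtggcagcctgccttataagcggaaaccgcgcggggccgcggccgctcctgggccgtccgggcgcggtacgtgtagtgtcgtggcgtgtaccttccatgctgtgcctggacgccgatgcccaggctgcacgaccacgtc
Hmgcs1 held 4 CCAAT boxes and 3 GGGCGG matches, and Idi1 held 2 and 1. The other 4 promoters held 1 CCAAT box each, with 1 GGGCGG match in Cyp51, 2 in Tm7sf2, 3 in Insig1 and 5 in Srebf2.

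In the mevalonate pathway, 2 of 6 genes fell on the atherogenic diet in 5LO KO livers (Pmvk and Mvd) and 1 of 6 in B6 livers (Idi1), and all 6 differences were below 0 in both genotypes. Values per mouse are normalised Cy5 intensities in the arbitrary unit of the table, given from mouse A on, and they are compared within a gene only. Pmvk, which adds the second phosphate to mevalonate, read 2.75, 2.46, 2.97, 2.71 and 2.61 in 5LO KO mice on the atherogenic diet, against 4.32, 4.97, 4.56, 10.6 and 3.35 in 5LO KO mice on chow. It read 2.57, 2.78, 2.61 and 2.38 in B6 mice on the atherogenic diet, against 4.75, 3.26, 4.29, 4.21 and 2.69 in B6 mice on chow. The 5LO KO groups were separate, with chow mouse D far above the rest, whereas in B6 mice chow mouse E lay among the atherogenic mice. The difference was -0.92 in 5LO KO livers (SE 0.23, adjusted p = 0.0163) and -0.54 in B6 livers (adjusted p = 0.179).

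Mvd, the decarboxylase that yields isopentenyl diphosphate, read 0.0522, 0.0562, 0.0595, 0.0687 and 0.0531 in atherogenic 5LO KO mice, against 0.073, 0.0996, 0.0823, 0.119 and 0.0583 in chow 5LO KO mice. In B6 mice it read 0.0585, 0.0513, 0.0568 and 0.0531 on the atherogenic diet, against 0.089, 0.0755, 0.0741, 0.0656 and 0.0763 on chow. Chow 5LO KO mouse E lay within the atherogenic range, and the B6 groups were separate. Mvd fell 1.45-fold in 5LO KO livers (log2 difference -0.54, SE 0.16, adjusted p = 0.0441), with -0.47 in B6 livers (adjusted p = 0.111). Its deposited intensities carry 2 decimals, so single steps of rounding are large at this level.

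Idi1, which isomerises isopentenyl diphosphate, read 0.17, 0.199, 0.14, 0.208 and 0.163 in atherogenic 5LO KO mice, against 0.237, 0.284, 0.299, 0.187 and 0.191 in chow 5LO KO mice. It read 0.139, 0.105, 0.161 and 0.137 in atherogenic B6 mice, against 0.185, 0.217, 0.255, 0.272 and 0.277 in chow B6 mice. The B6 groups were separate, and chow 5LO KO mice D and E lay among the atherogenic 5LO KO mice. The difference of Idi1 was -0.43 in 5LO KO livers (adjusted p = 0.124), and -0.65 there without chow mice D and E (adjusted p = 0.048). Leaving out these low chow mice enlarges the fall by itself, so the second value is no separate support. Idi1 fell 1.78-fold in B6 livers (log2 difference -0.83, SE 0.19, adjusted p = 0.00901). The second probe of Idi1 passed in neither genotype, with -0.48 in 5LO KO livers and -0.72 in B6 livers.

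Hmgcs1, the cytosolic synthase of hydroxymethylglutaryl-CoA, read 3.01, 2.53, 2.21, 2.39 and 3.89 in atherogenic 5LO KO mice, against 8.97, 5.68, 7.88, 4.05 and 2.08 in chow 5LO KO mice. The B6 mice read 2.55, 4.61, 1.97 and 2.17 on the atherogenic diet, against 3.88, 5.47, 3.89, 4.49 and 5.3 on chow. Chow 5LO KO mouse E was the lowest 5LO KO mouse on either diet, and atherogenic B6 mouse B exceeded 3 of the 5 chow B6 mice. With these mice in, Hmgcs1 did not pass in 5LO KO livers (-0.89, SE 0.32, adjusted p = 0.0793) or B6 livers (-0.78, SE 0.33, adjusted p = 0.164). Without chow mice D and E its difference in 5LO KO livers was -1.42 (limma, adjusted p = 0.00354). These mice held the lowest chow values of Hmgcs1 in 5LO KO mice, so the larger fall is no separate support. The thiolase Acat2 and the kinase Mvk gave -0.11 and -0.18 in 5LO KO livers, and -0.47 and -0.38 in B6 livers, with no call.

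On the way from isoprenoids to squalene, 3 of 4 genes fell in 5LO KO livers (Fdps, Fdft1 and Sqle) and 1 of 4 in B6 livers (Sqle). Sqle, squalene epoxidase, fell most of the 28 genes in both genotypes. It read 0.0223, 0.0228, 0.0241, 0.022 and 0.022 in atherogenic 5LO KO mice, against 0.329, 0.698, 0.798, 0.493 and 0.0357 in chow 5LO KO mice. It read 0.0257, 0.0317, 0.0114 and 0.0325 in atherogenic B6 mice, against 0.569, 0.409, 0.684, 0.499 and 0.431 in chow B6 mice. All 9 atherogenic mice lay below all 10 chow mice after normalisation. In the deposited intensities chow 5LO KO mouse E read 0.03, the same as 5 of the 9 atherogenic mice, so that its separation lies within 1 step of rounding. Sqle was 14-fold lower on the atherogenic diet in 5LO KO livers (log2 difference -3.81, SE 0.57, adjusted p = 0.000284) and 21.7-fold lower in B6 livers (-4.44, SE 0.60, adjusted p = 9.43e-05). The deposited intensities of the atherogenic mice were 0.02 or 0.03, the lowest steps above 0.01 of a scale rounded to 2 decimals, so the folds are coarse. Without chow mice D and E the difference in 5LO KO livers was -4.70.

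Fdps, which makes geranyl and farnesyl diphosphate, read 0.0599, 0.0901, 0.12, 0.0965 and 0.0454 in atherogenic 5LO KO mice, against 0.185, 0.432, 0.242, 1.74 and 0.118 in chow 5LO KO mice. In B6 mice it read 0.0486, 0.0794, 0.0881 and 0.0716 on the atherogenic diet, against 0.404, 0.169, 0.179, 0.208 and 0.25 on chow. The B6 groups were separate, and in 5LO KO mice chow mouse D lay far above the others while chow mouse E lay within the atherogenic range. Fdps fell 4.25-fold in 5LO KO livers (log2 difference -2.09, SE 0.50, adjusted p = 0.0134) and missed the threshold in B6 livers (-1.71, SE 0.53, adjusted p = 0.0552).

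Fdft1, squalene synthase, read 3.79, 5.14, 4.54, 3.64 and 5.75 in atherogenic 5LO KO mice, against 7.21, 8.64, 8.71, 10.4 and 4.97 in chow 5LO KO mice. The B6 mice read 5.14, 4.84, 5.14 and 3.63 on the atherogenic diet, against 7.16, 6.13, 7.54, 6.24 and 6.48 on chow. Only chow 5LO KO mouse E, among the 10 chow mice, lay within the atherogenic range of its genotype. The difference was -0.78 in 5LO KO livers (SE 0.19, adjusted p = 0.0128) and -0.53 in B6 livers (adjusted p = 0.108). Ggps1, which makes geranylgeranyl diphosphate for protein prenylation and not for sterols, gave -0.01 in 5LO KO livers and 0.00 in B6 livers, and neither of its probes passed.

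Of the 9 genes from lanosterol to cholesterol, 4 fell in 5LO KO livers (Cyp51, Tm7sf2, Sc4mol and Hsd17b7) and 3 in B6 livers (Cyp51, Tm7sf2 and Hsd17b7), and all 9 differences were below 0 in both. Tm7sf2, a sterol reductase of the endoplasmic reticulum, read 0.243, 0.315, 0.436, 0.264 and 0.171 in atherogenic 5LO KO mice, against 1.01, 1.18, 1.71, 2.2 and 0.495 in chow 5LO KO mice. It read 0.197, 0.153, 0.237 and 0.145 in atherogenic B6 mice, against 1.64, 1.46, 1.04, 0.981 and 1.25 in chow B6 mice. The diets were separate in both genotypes, with chow 5LO KO mouse E nearest to the atherogenic mice. Tm7sf2 fell 4.30-fold in 5LO KO livers (log2 difference -2.10, SE 0.32, adjusted p = 0.000315) and 6.96-fold in B6 livers (-2.80, SE 0.33, adjusted p = 2.55e-05).

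Cyp51, the lanosterol demethylase, read 0.0504, 0.0475, 0.046, 0.0504 and 0.0531 in atherogenic 5LO KO mice, against 0.305, 0.183, 0.331, 0.0479 and 0.0473 in chow 5LO KO mice. In B6 mice it read 0.0502, 0.0876, 0.0342 and 0.0734 on the atherogenic diet, against 0.22, 0.217, 0.316, 0.284 and 0.321 on chow. Chow 5LO KO mice D and E lay within the range of the atherogenic 5LO KO mice, whereas mice A to C and all 5 chow B6 mice lay above them. Cyp51 fell 2.69-fold in 5LO KO livers (log2 difference -1.43, SE 0.44, adjusted p = 0.0468) and 4.64-fold in B6 livers (-2.21, SE 0.47, adjusted p = 0.00571). The 5LO KO call was lost on leaving out 16 of the 19 mice in turn. Without both mice D and E the difference was -2.45 (limma, adjusted p = 4.69e-05). That fit leaves out the lowest chow values of Cyp51, so it is no separate support for the fall.

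Sc4mol, Nsdhl and Hsd17b7 act together to remove a pair of methyl groups from the sterol ring. Sc4mol read 0.888, 0.609, 0.5, 0.548 and 0.764 in atherogenic 5LO KO mice, against 1.12, 2.16, 2.37, 2.26 and 0.468 in chow 5LO KO mice. It read 0.779, 0.734, 0.535 and 0.791 in atherogenic B6 mice, against 1.51, 1.12, 2.28, 1.67 and 1.26 in chow B6 mice. The groups were separate apart from chow 5LO KO mouse E, which lay below all 5 atherogenic 5LO KO mice. The difference was -1.15 in 5LO KO livers (SE 0.34, adjusted p = 0.0411) and -1.12 in B6 livers (SE 0.37, adjusted p = 0.0689).

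Hsd17b7 read 1.52, 1.05, 1.3, 1.22 and 0.801 in atherogenic 5LO KO mice, against 1.76, 1.82, 2.51, 1.51 and 1.44 in chow 5LO KO mice. The B6 mice read 1.07, 1.07, 1.08 and 1.4 on the atherogenic diet, against 1.76, 2.55, 2.7, 2 and 2.29 on chow. The B6 groups were separate, and chow 5LO KO mice D and E fell within the atherogenic range. Hsd17b7 fell 1.54-fold in 5LO KO livers (log2 difference -0.62, SE 0.19, adjusted p = 0.0429) and 1.95-fold in B6 livers (-0.96, SE 0.20, adjusted p = 0.00486). The 5LO KO calls of Sc4mol and Hsd17b7 were each lost on leaving out 10 of the 19 mice in turn, and that of Mvd on leaving out 13.

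The other 5 late enzymes had no call in either genotype. Lss, which closes the rings of lanosterol, gave -0.42 in 5LO KO livers (adjusted p = 0.144) and -0.64 in B6 livers (adjusted p = 0.0511), where its groups were separate. Nsdhl gave -0.66 and -0.46, the isomerase Ebp -0.38 and -0.26, the desaturase Sc5d -0.39 and -0.45, and the final reductase Dhcr7 -0.53 and -0.53, in 5LO KO and B6 livers in that order. Nsdhl was dim, with 31.2% of probes dimmer, and Ebp was bright, with 99.6% dimmer.

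**Figure D2:**
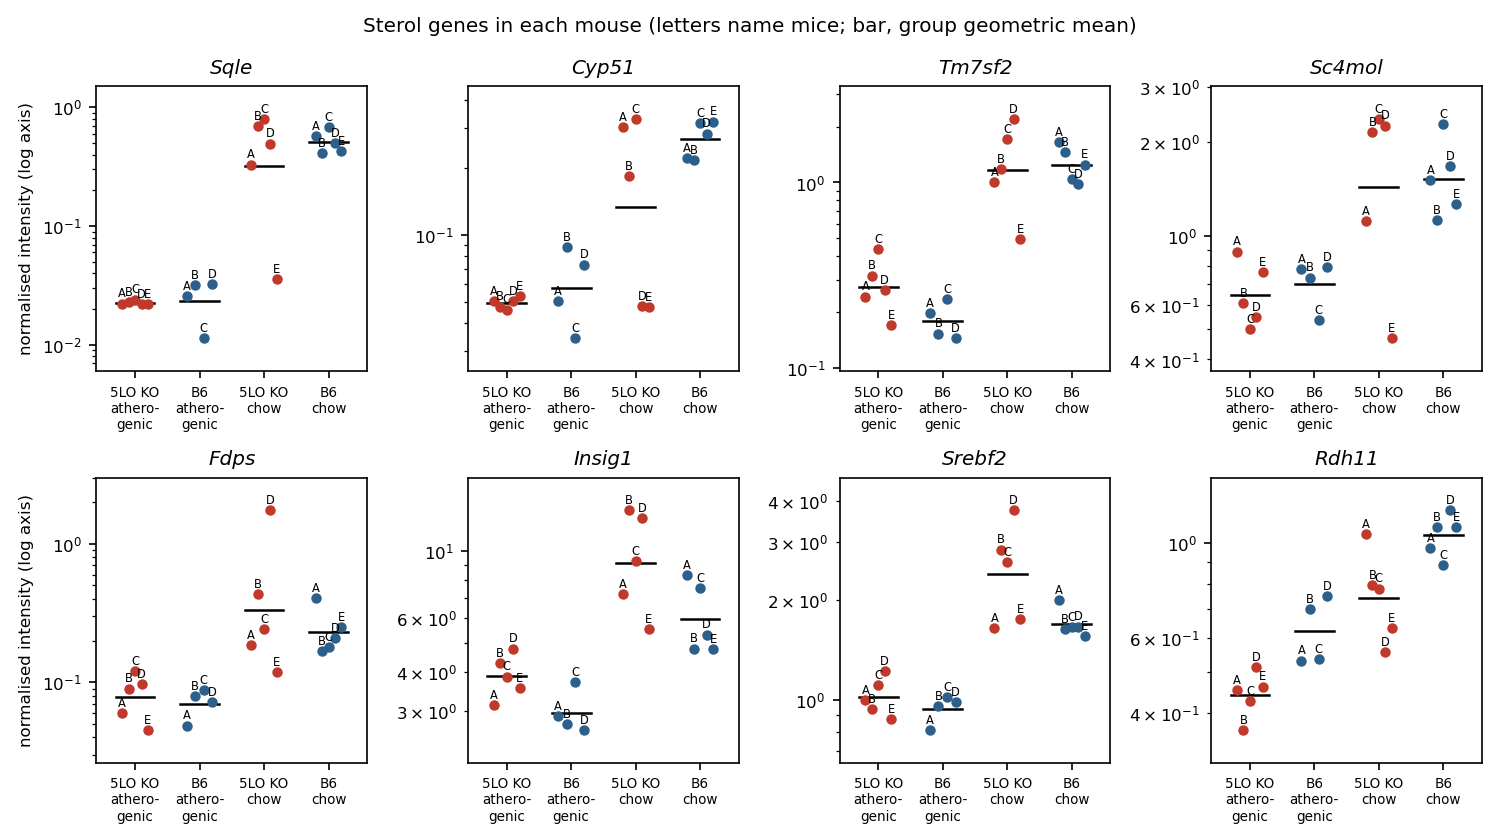
Normalised Cy5 intensity on a log axis in each mouse for 8 of the genes that fell, by group; letters name mice and bars are group geometric means. Atherogenic mice lie below chow mice of their genotype, apart from chow 5LO KO mice D and E for Cyp51 and mouse E for Sc4mol and Fdps, and D lies highest for Fdps.

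Among the regulators, Srebf2 and Insig1 fell in both genotypes, 2 of 6 genes in each. Srebf2, which encodes SREBP2 itself, read 0.997, 0.935, 1.11, 1.22 and 0.874 in atherogenic 5LO KO mice, against 1.64, 2.85, 2.61, 3.75 and 1.75 in chow 5LO KO mice. It read 0.81, 0.957, 1.02 and 0.981 in atherogenic B6 mice, against 2, 1.63, 1.66, 1.67 and 1.56 in chow B6 mice. The groups were separate in both genotypes, and the chow values spread more widely in 5LO KO mice. Srebf2 fell 2.36-fold in 5LO KO livers (log2 difference -1.24, SE 0.19, adjusted p = 0.000374) and 1.81-fold in B6 livers (-0.86, SE 0.20, adjusted p = 0.0118).

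Insig1, the retention protein that is itself an SREBP target, read 3.12, 4.29, 3.87, 4.78 and 3.55 in atherogenic 5LO KO mice, against 7.2, 13.5, 9.25, 12.7 and 5.53 in chow 5LO KO mice. In B6 mice it read 2.88, 2.71, 3.72 and 2.59 on the atherogenic diet, against 8.31, 4.78, 7.53, 5.31 and 4.76 on chow. Here too every atherogenic mouse lay below every chow mouse of its genotype. Insig1 fell 2.35-fold in 5LO KO livers (log2 difference -1.23, SE 0.23, adjusted p = 0.0026) and 2.02-fold in B6 livers (-1.02, SE 0.25, adjusted p = 0.0147).

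Insig2, the second retention protein, had no call in either genotype, and is given for every mouse because mouse D stood apart, a choice made after its values were seen. It read 15.7, 12, 8.39, 10.9 and 8.68 in atherogenic 5LO KO mice, against 9.89, 6.07, 7.6, 1.69 and 6.62 in chow 5LO KO mice. The B6 mice read 11.4, 11.7, 9.46 and 15 on the atherogenic diet, against 5.3, 8.21, 11.4, 12.3 and 9.68 on chow. The groups overlapped in both genotypes, and chow 5LO KO mouse D was the lowest of all mice. The difference was 0.97 in 5LO KO livers (SE 0.35, adjusted p = 0.0836), 0.49 there without chow mice D and E (adjusted p = 0.316), and 0.38 in B6 livers (adjusted p = 0.575). With median centring of the Cy5 intensities the B6 difference was -0.11. With arrays weighted by their quality, Insig2 was the 1 of 28 genes called as higher in 5LO KO livers. It was also called as higher there without chow 5LO KO mouse A (limma, adjusted p = 0.0349). The escort Scap gave 0.00 in 5LO KO livers and -0.12 in B6 livers, and the Golgi proteases gave 0.14 and 0.16 (Mbtps1) and 0.51 and -0.23 (Mbtps2, a dim probe with 31.2% of probes dimmer), with no call.

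Of the 3 genes of transport and other targets, Rdh11 fell in 5LO KO livers, and Stard4 and Rdh11 fell in B6 livers. Stard4, which carries sterol between membranes, read 0.0224, 0.0234, 0.0241, 0.0228 and 0.022 in atherogenic 5LO KO mice, against 0.0489, 0.0435, 0.0509, 0.0209 and 0.0225 in chow 5LO KO mice. It read 0.0137, 0.0216, 0.0206 and 0.022 in atherogenic B6 mice, against 0.0447, 0.0442, 0.0365, 0.0336 and 0.0556 in chow B6 mice. The B6 groups were separate, and chow 5LO KO mice D and E stood at the atherogenic level. The difference of Stard4 was -0.60 in 5LO KO livers (adjusted p = 0.107), and -1.08 there without chow mice D and E (adjusted p = 0.00167). Leaving out these low chow mice enlarges the fall by itself, so the second value is no separate support. Stard4 fell 2.21-fold in B6 livers (log2 difference -1.14, SE 0.25, adjusted p = 0.00709). Its probe was dim, with 32.8% of probes dimmer, and its deposited intensities lay between 0.02 and 0.05.

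Rdh11, a retinol dehydrogenase known as an SREBP target in mouse liver, read 0.453, 0.366, 0.428, 0.512 and 0.462 in atherogenic 5LO KO mice, against 1.05, 0.797, 0.782, 0.556 and 0.633 in chow 5LO KO mice. In B6 mice it read 0.531, 0.7, 0.536 and 0.75 on the atherogenic diet, against 0.973, 1.09, 0.888, 1.19 and 1.09 on chow. The diets were separate in both genotypes. Rdh11 fell 1.69-fold in 5LO KO livers (log2 difference -0.76, SE 0.17, adjusted p = 0.00917) and 1.67-fold in B6 livers (-0.74, SE 0.18, adjusted p = 0.0148). The B6 calls of Srebf2 and Rdh11 were lost without atherogenic B6 mouse A (adjusted p = 0.051 and 0.0649). Npc1l1, the sterol uptake transporter, was among the dimmest probes, with 9.96% dimmer, and gave -0.39 in 5LO KO livers and -0.75 in B6 livers (adjusted p = 0.286 and 0.0689).

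The pools gave a reading of the diet in B6 livers in the other dye, although each pool is 1 RNA sample and was not tested. This reading is not independent of the single mice, because both channels shared the arrays and the normalisation. The atherogenic pool read lower than the chow pool for 24 of the 28 genes, and the single B6 mice averaged lower for 25. The sign was the same for 27 genes, and the median pool difference was -0.57. Across genes the differences of the pools and of the single mice correlated with r = 0.979 (Pearson, n = 28 genes, which share arrays, and no test). Sqle gave -4.63, Tm7sf2 -2.75 and Cyp51 -2.28 in the pools. Sc4mol differed most between the channels, with -1.61 in the pools and -1.12 in the single mice. Whether the pools hold the same animals as the single arrays is not stated in the labels.

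**Figure D3:**
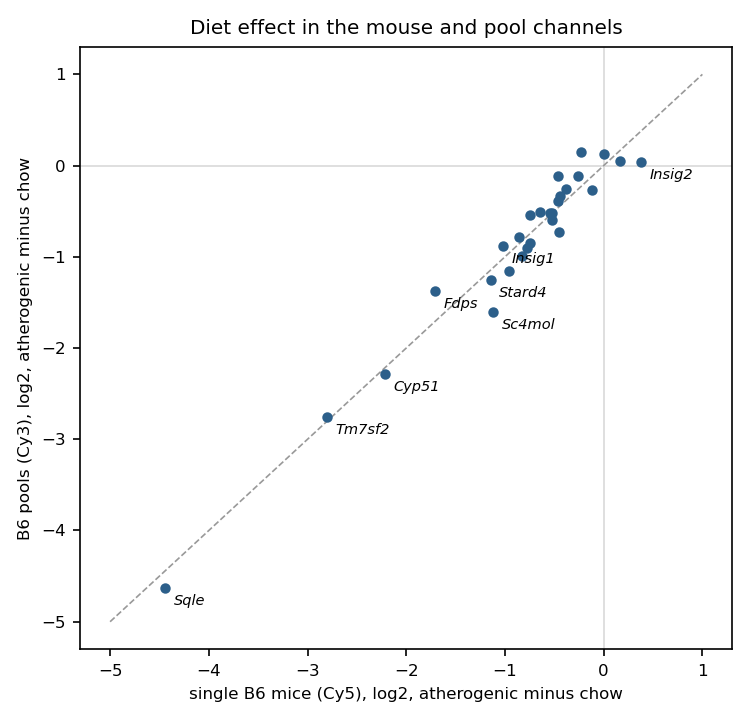
Difference of log2 intensity, atherogenic minus chow, of the 28 genes in single B6 mice (Cy5, horizontal) and in the B6 pools (Cy3, vertical); the dashed line marks equality. The points follow the line, from Sqle at -4.44 and -4.63 to Insig2 at 0.38 and 0.03.

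Other lists of cholesterol and lipid genes were read for the same diet difference. Of all probes, 5.23% were called as higher and 4.37% as lower in 5LO KO livers, and 4.62% and 2.54% in B6 livers. Of 10 genes of cholesterol storage and efflux, 7 rose and 0 fell in each genotype, with medians of 1.18 in 5LO KO livers and 1.01 in B6 livers. They include the cholesterol transporter Abcg1 (2.87 in 5LO KO and 2.68 in B6 livers), the sterol exporters Abcg5 (2.03 and 1.75) and Abcg8 (1.87 and 1.21), and the esterifying enzyme Soat1 (1.54 and 2.10). Abcg1, Abcg5 and Abcg8 are known targets of LXR, the receptor that senses oxidised sterols. Of 9 genes of SREBP1-driven fatty acid synthesis, 3 rose in 5LO KO livers, and 2 rose and 1 fell in B6 livers. Scd1 rose by 2.60 in 5LO KO livers and by 2.47 in B6 livers, and Srebf1 by 1.95 and 2.46, while Fasn rose in 5LO KO livers (0.72) and Me1 fell in B6 livers (-1.36).

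Of the neighbours of the sterol pathway, 3 lists were read against the 9.61% of all probes called in 5LO KO livers and the 7.16% called in B6 livers. Of 10 partners of sterol-driven protein degradation in the endoplasmic reticulum, Syvn1 fell in 5LO KO livers (-0.62), and in B6 livers Vcp fell (-0.72) and Erlin1 rose (0.48). Of 14 genes of the non-sterol branches (dolichol, ubiquinone and prenylation), Rce1 fell in both genotypes (-0.61 in 5LO KO and -0.66 in B6 livers) and Coq2 rose in 5LO KO livers (0.86). Of 7 genes of acetyl-CoA supply and redox partners, Lbr fell in 5LO KO livers (-0.50), and in B6 livers 0 passed in limma. At an unadjusted p under 0.05 there were 2 of the 7 in B6 livers, beside 5507 of 23344 probes. The medians of these 3 lists lay between -0.14 and 0.11.

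**Figure D4:**
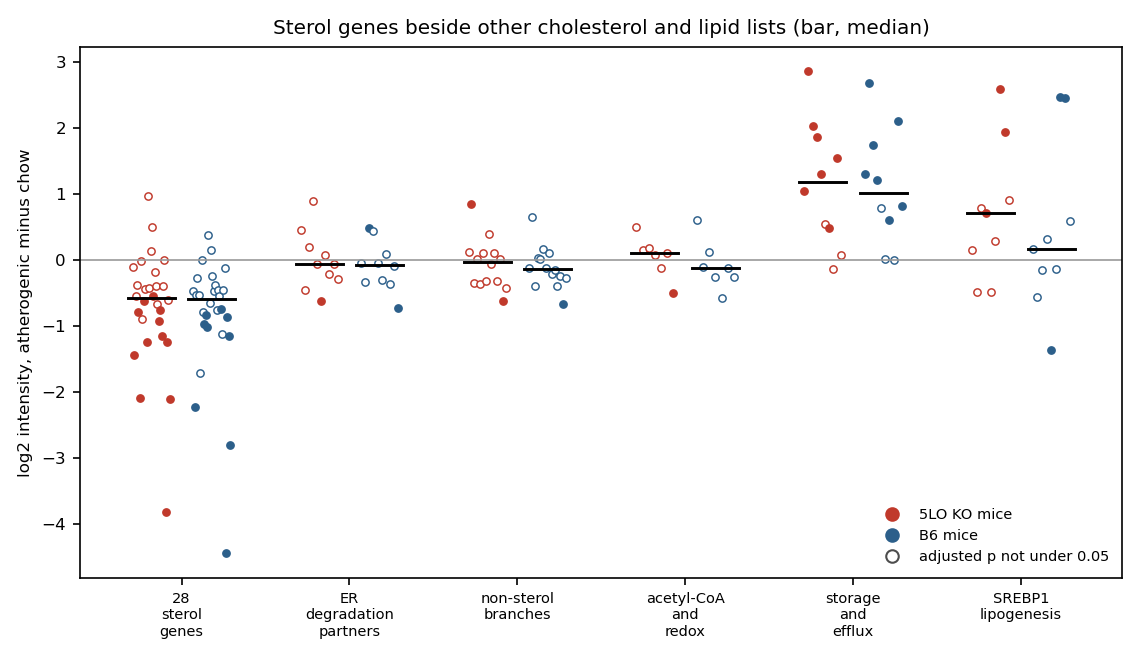
Difference of log2 intensity, atherogenic minus chow, of each gene of the 28 sterol genes and of 5 other lists, in 5LO KO mice (red) and B6 mice (blue); filled points had an adjusted p under 0.05 and bars are medians. The sterol genes have medians of -0.57 and -0.59, and the storage and efflux genes 1.18 and 1.01.

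Markers of some other liver cells also moved with the diet. Over all probes, 5.23% were called as higher in 5LO KO livers and 4.62% in B6 livers. Of 7 macrophage markers, 6 rose in each genotype, with medians of 1.31 in 5LO KO livers and 1.27 in B6 livers. Their mean log2 intensity lay between -0.38 and 0.40 in atherogenic 5LO KO mice, against -1.99 to -1.27 in chow 5LO KO mice. It lay between -0.16 and 0.25 in atherogenic B6 mice, against -1.90 to -1.38 in chow B6 mice. Of 6 neutrophil markers 0 passed in 5LO KO livers in limma, and 4 rose in B6 livers. At an unadjusted p under 0.05 there were 0 of the 6 in 5LO KO livers, beside 6324 of 23344 probes. On chow the mean log2 ratio of these 6 markers to the pool lay between 0.71 and 2.76 in 5LO KO mice, against -0.33 to 0.38 in B6 mice. Stellate and fibroblast markers rose for 2 of 6 in 5LO KO and 3 of 6 in B6 livers. Of 5 cholangiocyte markers 1 rose in each genotype. Of 5 endothelial markers 0 passed in 5LO KO livers and 1 rose in B6 livers. Of 5 T cell markers and 4 B cell markers 0 passed in either genotype. The hepatocyte markers had medians of 0.10 in 5LO KO livers and 0.12 in B6 livers, with 1 of 4 and 0 of 4 called. The part of these cells in the fall of the sterol genes was not tested.

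The knockout effect passed for 1 of the 28 sterol genes (3.57%), and there only averaged over the diets, where 6.76% of all probes passed. This count does not set the sterol genes apart from all probes. On chow, 0 of the 28 genes passed between 5LO KO and B6 livers in limma, whereas 1.13% of all probes passed. At an unadjusted p under 0.05 there were 7 of the 28, beside 6389 of all 23344 probes. That count does not set the sterol genes apart either. On the atherogenic diet 0 of the 28 passed, beside 0.0214% of all probes. At an unadjusted p under 0.05 there was 1 of the 28, beside 2508 of the 23344 probes. The median log2 difference of the mouse-to-pool ratios, 5LO KO minus B6, was 0.06 in chow livers (-0.03 without chow 5LO KO mouse D) and 0.04 in atherogenic livers. The 6 neutrophil markers, which stood higher in chow 5LO KO mice, had a median of 1.65 for the same chow difference with 5 of 6 at an unadjusted p under 0.05 and 0 of 6 called, and their part in the values of the sterol genes was not tested. The difference of the knockout effect between the diets is also the difference of the diet effect between the genotypes. It passed for 0 of the 28 genes and for 0% of all probes. At an unadjusted p under 0.05 there were 0 of the 28, beside 1347 of the 23344 probes. For Sqle this difference between the diets was 0.57 with a 95% interval of -1.20 to 2.34, and -0.31 without chow mice D and E. The lowest unadjusted p among the 28 was 0.0872 for Srebf2 (-0.44), and the adjusted p was 0.784 or higher for all.

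Rdh11 was the 1 gene of 28 that passed for the knockout effect averaged over the diets, where 6.76% of all probes passed and 2.87% passed as lower. Its log2 ratios to the B6 pool were -0.48, -0.54, -0.65, -0.31 and -0.28 in atherogenic 5LO KO mice, against -0.09, 0.18, -0.02 and 0.27 in atherogenic B6 mice. They were -0.16, -0.46, -0.50, -1.22 and -0.76 in chow 5LO KO mice, against -0.15, 0.03, -0.16, 0.15 and 0.18 in chow B6 mice. On the atherogenic diet all 5LO KO mice lay below all B6 mice, as for 2.78% of all probes. On chow the order was the same, as for 1.65% of all probes, but 5LO KO mouse A and B6 mouse C were apart by less than the rounding. Rdh11 was 1.5-fold lower in 5LO KO livers over both diets (log2 difference -0.58, SE 0.11, adjusted p = 0.0136). It did not pass on chow alone (-0.63, SE 0.15, adjusted p = 0.0519, and -0.38 with adjusted p = 0.195 without chow mice D and E) or on the atherogenic diet alone (-0.53, SE 0.16, adjusted p = 0.245). Without chow mice D and E the average was -0.46 (SE 0.08, adjusted p = 0.0124).

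The genes nearest to the threshold after Rdh11 were Ebp and Insig1, both higher in 5LO KO livers on average and neither called. The log2 ratios of Ebp were 0.31, 0.25, 0.66, 0.31 and 0.06 in atherogenic 5LO KO mice, against -0.20, -0.26, 0.07 and -0.29 in atherogenic B6 mice. They were 0.15, 0.82, 0.36, 1.77 and 0.67 in chow 5LO KO mice, against 0.43, -0.19, 0.44, 0.12 and -0.01 in chow B6 mice. The average difference of Ebp was 0.54 (SE 0.17, adjusted p = 0.0555), with overlap on both diets. Insig1 had an average difference of 0.54 (adjusted p = 0.0906), with 0.24, 1.39, 0.70, 1.55 and -0.08 in chow 5LO KO mice, against 0.61, -0.28, 0.31, -0.17 and -0.18 in chow B6 mice. These genes were singled out after their values were seen.

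The chow-fed 5LO KO mice varied more among themselves than any other group. The median standard deviation of the log2 ratios over the 28 genes was 0.224 in atherogenic 5LO KO mice and 0.179 in atherogenic B6 mice. On chow it was 0.475 in 5LO KO mice, 0.271 over the 3 of them other than D and E, and 0.235 in B6 mice. It exceeded 0.5 for 13 of the 28 genes in chow 5LO KO mice (4 without D and E), and for 0, 1 and 1 genes in atherogenic 5LO KO, atherogenic B6 and chow B6 mice. Mouse D gave ratios of 2.63 for Fdps, 1.77 for Ebp and 1.61 for Pmvk, and -2.58 for Cyp51 and -2.5 for Insig2. Mouse E gave -4.17 for Sqle, -2.58 for Cyp51, -1.97 for Sc4mol, -1.48 for Tm7sf2 and -1.17 for Hmgcs1. Mouse D held high and low ratios among these genes. The genes named for mouse E are low ones only, but not all of its genes were low. Its ratio of Ebp was above 0, and its mean log2 ratio was -0.08 over the 6 regulators, against -1.29 over the 4 genes from isoprenoids to squalene.

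**Figure D5:**
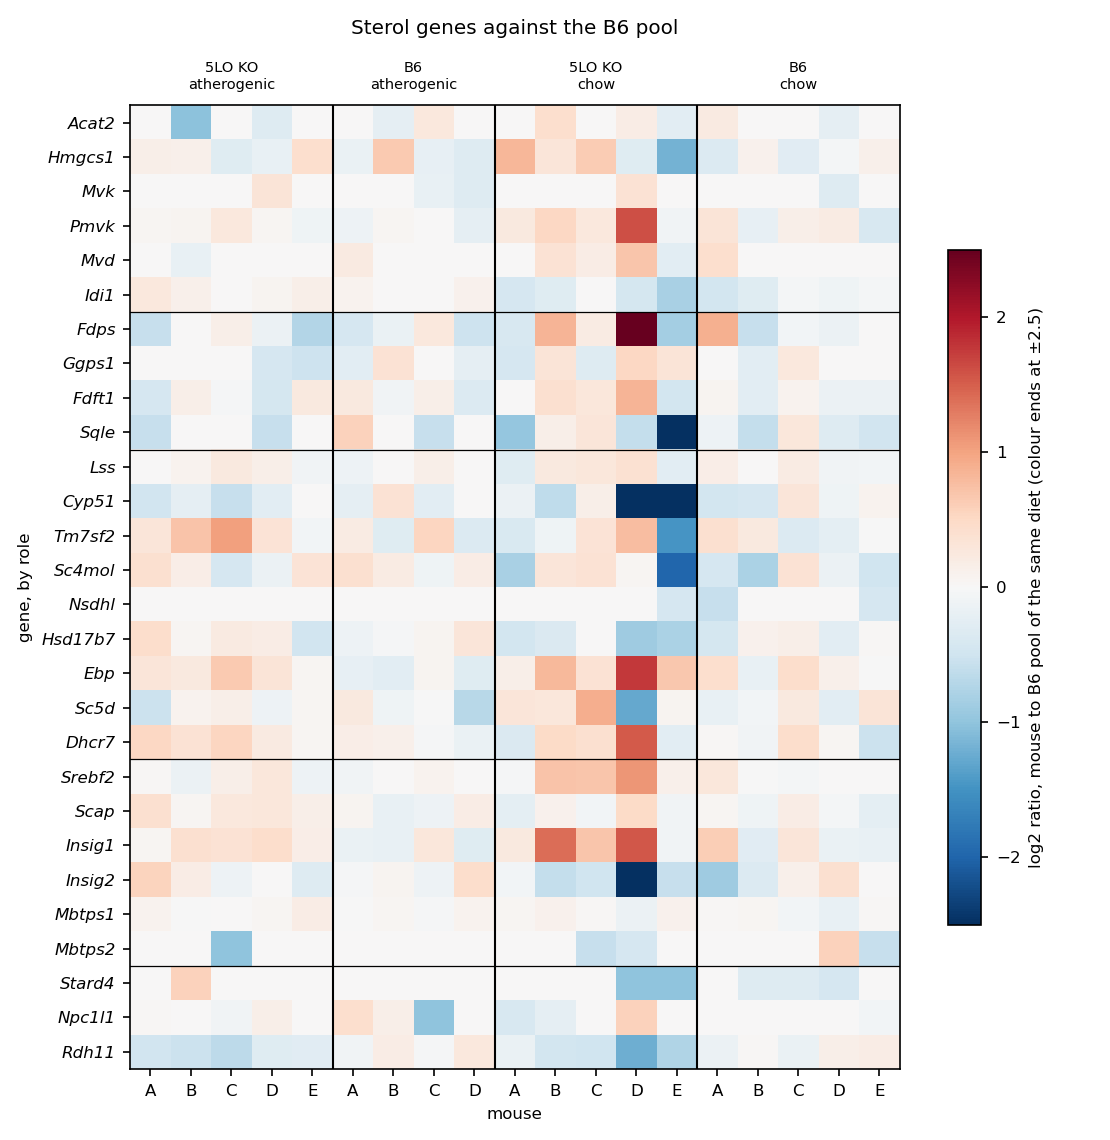
Log2 ratio of each mouse to the B6 pool of its diet for the 28 genes by role (colour, ending at 2.5 in either direction), with 1 column per mouse in 4 groups. Chow 5LO KO mice D and E stand out, with Fdps at 2.63 in D, Sqle at -4.17 in E and Cyp51 at -2.58 in both, and Rdh11 is below 0 in all 10 5LO KO mice.

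Of the 14 genes that fell with the diet in either genotype, chow mouse E lay at or below the highest atherogenic mouse of either genotype for 9 and chow mouse D for 5. The other 3 chow 5LO KO mice did so for 0, and the 5 chow B6 mice for 0 to 2. The macrophage list and the storage and efflux list rose with the diet in these same mice. Over the macrophage list mouse E had a mean log2 intensity of -1.27, the highest of the chow mice, against -0.38 to 0.40 in atherogenic 5LO KO mice. Over the storage and efflux list it had -0.70, against 0.12 to 0.52 in atherogenic 5LO KO mice. The mean hepatocyte marker intensities were low on the arrays of mice D and E, but the mean log2 ratios to the pool there were -0.31 and -0.24. Their part in the sterol values of these mice was not tested.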

How the data were processed

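Per the labels' protocols, liver RNA came from a Trizol extraction, and 2 rounds of amplification started from 100 ng. The submitters' processing notes name Agilent Feature Extraction 8.5.1.1. The deposited table gives the intensity of the pool and of the mouse for each of 19 arrays, per the file headers, rounded to 2 decimals. How background and dyes were corrected is not stated (not given in the sources used here). A second deposited table holds log10 ratios of mouse to pool, which, in sorted order within each group, differed from those of the first by at most 0.0165 on the log2 scale. Column names give the group and not the sample, so letters only name mice, and 0 columns belonged to other samples.

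Genotypes were compared on log2 ratios as deposited, and diets on Cy5 intensities after loess within and Aquantile between arrays, with limma 3.58.1 in R 4.3.3 (4 groups in 1 fit, Benjamini-Hochberg over all probes, threshold 0.05). SE is the moderated standard error. A probe needed 3 values in every group, a filter chosen after seeing the files that kept 23344 probes and removed 224. The members, gene lists, markers and tests were chosen with earlier results of these data known. Every member is named; values per mouse are given for members that passed and the 2 largest diet effects of each role, with Insig2 added after its values were seen, and other lists name up to 4 genes that passed. The fit was tested on simulated data. Alternatives were another normalisation, probe filters, array weights, a trended variance, 2-group fits, each mouse left out, and, added after seeing the data, mice D and E left out together and the replicate number as a block. Of the listed comparison genes and markers, Por, Gpam, Tat, Cps1 and Gpnmb had too few values and Des had no probe.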

Additional observations from a re-analysis of the deposited data

Results flagged for a closer look

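A mouse stood far from the others of its group, by Dixon's test at the 95% level, in 4 of the 83 groups of 4 or 5 log2 ratios tested (4.82%), and chance flags about 1 in 20 groups. Another 29 groups spread within the rounding and were not tested, an exclusion chosen after seeing the data. Sqle had a log2 ratio of -4.17 in chow 5LO KO mouse E, whereas the other 4 mice lay between -0.98 and 0.31. Insig2 had -2.5 in chow 5LO KO mouse D, whereas the others lay between -0.60 and -0.07. Hmgcs1 had 0.64 in atherogenic B6 mouse B, whereas the others lay between -0.33 and -0.16. Srebf2 had 0.29 in chow B6 mouse A, whereas the others lay between -0.04 and 0.02. For 0 genes did the knockout mice of the diets all move in opposite directions.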

How the results depend on the processing

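No member that passed changed direction under the alternatives run, but differences without a call did. With median centring Ggps1 (-0.064), Insig2 (-0.11) and Mbtps1 (-0.23) turned below 0 in B6 livers and Scap (-0.25) in 5LO KO livers, where Scap also gave -0.015 with quantile scaling. With array weights Acat2 (0.046) and Ggps1 (0.088) turned above 0 in 5LO KO livers, and Ggps1 gave 0.27 without mice D and E. The Sqle difference of 0.57 between the diets became -0.31 without mice D and E. With each mouse left out, the diet differences that crossed 0 ran from -0.22 to 0.15 for Ggps1 and from -0.45 to 0.10 for Mbtps2 in B6 livers, and in 5LO KO livers from -0.65 to 0.071 for Acat2, from -0.14 to 0.17 for Ggps1 and from -0.062 to 0.063 for Scap, while the Sqle difference ran from -0.20 to 0.92. On chow 1 member passed between the genotypes among the probes brighter than the median and with array weights (Rdh11 each time), beside 8.05% and 6.12% of the probes tested. On the atherogenic diet 1 passed with array weights (Rdh11), beside 1.89% of the probes tested. For the average over the diets, 2 passed with loess, among the brighter probes and with array weights, where Ebp joined Rdh11. The share of the probes tested that passed was 6.63%, 15.3% and 16.5% in that order. For the diet in B6 livers, 15 passed with median centring and 16 without chow 5LO KO mice D and E, beside 6.67% and 10.8% of all probes. Leaving out each mouse in turn gave 0 to 5 members on chow, with 5 without chow 5LO KO mouse A, where 16.5% of all probes passed. There was 1 without chow 5LO KO mouse C or chow B6 mouse A, beside 5.15% and 3.35% of all probes. Leaving out each mouse gave 0 to 0 on the atherogenic diet and for the difference between diets. For the average it gave 1 to 4 (4 without chow 5LO KO mouse A, beside 15.5% of all probes). For the diet in 5LO KO livers it gave 8 to 13, beside 4.99% to 13.4% of all probes, with Insig2 called as higher without chow 5LO KO mouse A. In B6 livers it gave 7 to 15, beside 3.93% to 11.8% of all probes, with 7 without atherogenic B6 mouse A and 15 without chow 5LO KO mouse D. In 5LO KO livers Mvd lost its diet call with median centring and array weights, Cyp51 with quantile scaling and median centring, Sc4mol with array weights, and Hsd17b7 and Rdh11 with median centring. The causes of these changes were not tested.

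Over all probes, the genotype calls on chow numbered 263, against 0 with quantile scaling, 423 with loess, 940 among the brighter probes, 1 with trended robust variance, 1428 with array weights and 5 in a 2-group fit, and 3 to 3853 with each mouse left out (3 without chow B6 mouse B, D or E, 3853 without chow 5LO KO mouse A). On the atherogenic diet they numbered 5, against 22, 3, 13, 0, 442 and 8 in the same order and 0 to 85 with each mouse left out, and for the difference between the diets 0, against 0 to 2 with each mouse left out. For the average they numbered 1577, against 927, 765 and 3847 with quantile scaling, trended variance and array weights, and 274 (without atherogenic B6 mouse A) to 3610 (without chow 5LO KO mouse A). The diet calls numbered 2243 in 5LO KO livers, against 1146 without mice D and E and 1164 to 3128 with each mouse left out, and 1671 in B6 livers, against 3128 with array weights, 2486 without mice D and E and 917 to 2735 with each mouse left out. With median centring 46.4% of the diet calls in 5LO KO livers were higher, against 54.5%, and 42.2% in B6 livers, against 64.6%. It moved the median of all probes in B6 livers to -0.18. Relative to the median of all probes, 24 of the 28 differences were then lower in 5LO KO livers and 26 in B6 livers, beside 24 and 25 without that centring. Replicate numbers did not pair the samples, with correlations of -0.43 to -0.03 for chow and -0.06 to 0.10 for the atherogenic diet. With the replicate number as a block, 0 members passed on chow, 0 on the atherogenic diet, 0 for the difference and 1 for the average, and over all probes 30 passed on chow, against 264 without the block, and 3 against 5 on the atherogenic diet. No paired analysis of the diet was possible because the intensity columns carry no replicate number. The 8 dimmest members were absent from the brighter probes, and their values at 2 decimals limit small differences.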
